A study of Mus musculus with 8 samples.

Results

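The IER genes Ier2, Ier3, Ier5 and Ier5l code for small proteins named for their immediate early response to growth factors, stress and inflammatory signals. They were taken by gene symbol and make up 4 of the 23143 genes with a row of read counts. The counts come from RAW264.7 cells, a mouse macrophage line. Of the cultures, 1 was left unstimulated (0 min), and 7 were stimulated with 100 ng/ml LPS from the O111:B4 serotype of E. coli for 15, 30, 45, 60, 75, 90 or 120 min. LPS is a component of the bacterial cell wall that macrophages sense through Toll-like receptor 4. All cultures grew in the same medium, and no genotype or other agent distinguishes them. With 1 library per time point, differences between the time points carry no replicate check. Intervals given with ratios and levels cover counting error only. The labels name total RNA as the molecule and cytoplasmic as the RNA fraction, while the methods describe purification of RNA with no fractionation step for sequencing. In RNA from a whole culture, fewer expressing cells and less RNA per cell cannot be told apart.

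Immediate early genes are transcribed within minutes of a signal without new protein synthesis, and many of their transcripts are short-lived, so that their levels rise and fall quickly. IER2 is a nuclear protein linked to transcription and cell motility, and IER3, also known as IEX-1, acts on cell survival, ERK signalling and NF-κB feedback. IER5 binds the phosphatase PP2A through a B55 subunit and helps to activate the heat shock factor HSF1, and IER5L is a close but less studied relative of IER5. In LPS-treated macrophages, the NF-κB and MAP kinase pathways drive the transcription of most immediate early genes.

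Ier2 lies at chr8:84661331-84662852 on the minus strand, Ier3 at chr17:35821713-35822911 on the plus strand, Ier5 at chr1:155096367-155099636 on the minus strand and Ier5l at chr2:30472631-30474199 on the minus strand (RefSeq, GRCm38). Ier2, Ier5 and Ier5l have a single exon, and Ier3 has 2 exons. Their coding sequences in GENCODE translate to 221 residues for IER2, 160 for IER3, 308 for IER5 and 406 for IER5L. In local alignments starting at residue 1, IER2 and IER5 were identical at 65 of 224 aligned columns (29%), and IER2 and IER5L at 29 of 86 (33.7%). IER5 and IER5L were identical at 124 of 428 columns (29%). The best alignments of IER3 with IER2, IER5 and IER5L scored 37, 34 and 33, against 127 to 251 among the other 3 proteins. The shared symbol therefore covers 3 proteins with alignable N-termini and 1 protein of different sequence. No RefSeq gene overlaps any of the 4 genes. None of the 58-base stretches of their GENCODE transcripts occurs unchanged in a GENCODE transcript of another gene. The study mapped reads to RefSeq transcripts with up to 2 mismatches, and whether reads were ambiguous under that mapping was not tested.

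The upstream sequences of Ier3, Ier5 and Ier5l are shown because the first 2 transcripts rose and the third had lower counts after LPS. RefSeq promoters matched 3 of the 4 genes, and for each the 250 bases before the transcription start are given 5′ to 3′ in the direction of transcription. Capitals mark matches to an NF-κB site, a CArG box (the serum response element), AP-1 (TGANTCA), the core of a CRE (TGACG), an SP1 site (GGGCGG), the CCAAT box, the TATA box (searched as TATAAA and, separately, as TATATA) and the core of a heat shock element (GAANNTTC). The TATA box was searched in the direction of transcription and the others on both strands.
Ier3 (chr17:35821463-35821712, plus strand, GRCm38.p6): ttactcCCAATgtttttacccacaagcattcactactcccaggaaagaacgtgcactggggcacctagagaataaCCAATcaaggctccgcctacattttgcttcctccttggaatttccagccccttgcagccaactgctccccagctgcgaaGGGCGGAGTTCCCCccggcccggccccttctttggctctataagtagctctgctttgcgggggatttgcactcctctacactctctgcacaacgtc
Ier5 (chr1:155099637-155099886, minus strand, GRCm38.p6): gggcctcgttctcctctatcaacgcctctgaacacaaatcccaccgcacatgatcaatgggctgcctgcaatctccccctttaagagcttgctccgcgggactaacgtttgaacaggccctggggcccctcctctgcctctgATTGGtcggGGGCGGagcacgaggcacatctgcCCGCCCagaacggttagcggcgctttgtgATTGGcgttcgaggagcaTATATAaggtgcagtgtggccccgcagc
Ier5l (chr2:30474200-30474449, minus strand, GRCm38.p6): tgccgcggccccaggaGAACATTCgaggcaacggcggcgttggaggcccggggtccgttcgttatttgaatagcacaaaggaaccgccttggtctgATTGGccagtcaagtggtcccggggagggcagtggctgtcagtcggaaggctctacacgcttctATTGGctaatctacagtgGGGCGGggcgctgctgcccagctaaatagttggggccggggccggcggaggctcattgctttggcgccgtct

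Ier3 holds the only NF-κB match of these 3 windows, GGAGTTCCCC from base -92 to -83, which overlaps the SP1 match from -96 to -91. An NF-κB match occurs in 5.93% of the 32851 promoter windows searched. SP1 matches lie in all 3 windows and in 32.7% of all windows, and each window holds CCAAT at 2 places, which 33.8% of all windows hold at least once. A TATA match occurs only in Ier5 among the 3, from -28 to -23, and in 11.5% of all windows. The heat shock core lies only in Ier5l, from -234 to -227, and in 6.69% of all windows. No CArG box (1.47% of windows), AP-1 (6.75%) or CRE core (17.8%) was found in any of the 3. The GC content was 54.4% for Ier3, 60% for Ier5 and 62.4% for Ier5l, against a median of 52.4%. These matches describe the letters of the windows and say nothing of binding.

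The 3′UTRs were searched for ATTTA, which reads AUUUA in the RNA and is the core of AU-rich elements, because such elements mark many short-lived transcripts. Ier3 held 5 in 613 bases (8.16 per kb), Ier5 held 2 in 2143 bases (0.933 per kb), and Ier2 held none in 755 bases. Of 18450 genes with an annotated 3′UTR, 63.7% held at least 1, the median density was 1.15 per kb, and 97.7% had a lower density than Ier3. A stretch of Ier3 with 2 of its 5 pentamers and 1 site of Ier5 are shown, with ATTTA in capitals.
Ier3 3′UTR (chr17:35822484-35822513, plus strand): ctaattaatATTTAtgtATTTAtgtatatc
Ier5 3′UTR (chr1:155096847-155096876, minus strand): ggaggttggctaaATTTAattctcatgtag
The 3′UTR of Ier5l in GENCODE, with 3 such pentamers in 1254 bases, extends beyond the RefSeq gene.

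Across the libraries, the total counts ranged from 100250892 to 159077286. The ribosomal RNA precursor Rn45s took 8.18% to 9.11% of the counts at 0, 30, 60 and 120 min, and 12.96% to 20.53% at 15, 45, 75 and 90 min, so that the 45 min library at which several genes peak is among those with a high share. The part of this share in the results was not tested. Counts were divided by median-of-ratios size factors to give normalized read counts, and scaling by total counts instead lowers every log2 ratio to 0 min by up to 0.33 (75 min). All 7 macrophage markers (Emr1, Cd68, Csf1r, Itgam, Lyz2, Cd14 and Sfpi1, the older symbol of Spi1) were found in every library, with a summed level of 5599 to 6802 cpm (counts per 1000000 counts of the library). Lyz2 alone had 3059 to 4396 cpm. Cd14 was not steady, with a normalized count of 2.07 times its 0 min level at 60 min and 3.66 times at 120 min. The 9 markers of T cells, B cells, fibroblasts and epithelial cells summed to 0.062 to 0.0972 cpm, and Col1a1, Col1a2, Krt18 and Epcam had no count.

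Ier2 had 4855 counts before stimulation, 13162 after 15 min, 84654 after 30 min and 52215 after 45 min. It then had 18107 counts after 60 min, 5354 after 75 min, 6855 after 90 min and 12965 after 120 min. After normalization, the level rose from 4153 to 69320 at 30 min, a 16.7-fold increase (95% interval 16.2 to 17.2), and was 3.02-fold above 0 min at 15 min already (2.92 to 3.12). At 45 min it was still 14.2-fold higher (13.8 to 14.6). The 45 min level was 0.851 times the 30 min level (0.842 to 0.86), a difference above counting error that was not called. Ier2 was therefore high in the 30 and 45 min libraries and lower in the others, and which of these libraries was the higher rests on a small step.

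The fall of Ier2 was steep. Between 45 and 60 min the normalized count dropped to 0.273 times (0.269 to 0.278), and between 60 and 75 min to 0.468 times (0.454 to 0.482). At 75 min it was 1.82-fold above 0 min (1.75 to 1.89) and stood at 10.9% of its maximum. It was 2.1-fold above 0 min at 90 min (2.02 to 2.17) and 2.53-fold at 120 min (2.45 to 2.62), so the level did not return to that of the unstimulated library within 120 min. With total counts as the scale, the values at 75 and 90 min were 0.53 and 0.81 on the log2 scale and were no longer called. Without Rn45s in the total, the 75 min value was 0.73 and was not called either. The calls at 75 and 90 min were also lost with adjusted p-values, and that at 75 min with a log2 limit of 1.

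Ier3 had 1091 counts before stimulation, 2931 after 15 min, 14646 after 30 min and 17831 after 45 min. It had 10605 counts after 60 min, 5817 after 75 min, 8235 after 90 min and 17138 after 120 min. The normalized count was 2.99-fold above 0 min at 15 min (2.79 to 3.21), 12.8-fold at 30 min (12.1 to 13.7) and 21.6-fold at 45 min. Its early rise thus matched that of Ier2 at 15 min within counting error, and it went on for longer. From 30 to 45 min the level increased 1.68-fold (1.64 to 1.72), and from 45 to 60 min it dropped to 0.469 times (0.458 to 0.48).

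Unlike Ier2, Ier3 stayed far above the unstimulated level. It was lowest after its maximum at 75 min, where it still held 40.7% of the 45 min level, and it recovered to 51.9% at 90 min and 69% at 120 min. The step from 60 to 75 min, to 0.868 times (0.84 to 0.896), was not called. The low point at 75 min rests on the library with the highest share of Rn45s, and leaving that library out moved the minimum to 60 min and left the later rise without a call.

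Ier5 had 4746 counts before stimulation, 5104 after 15 min, 17122 after 30 min and 24107 after 45 min. It had 34080 counts after 60 min, 12529 after 75 min, 11088 after 90 min and 16926 after 120 min. At 15 min, when Ier2 and Ier3 had tripled, the normalized count of Ier5 was 1.2 times that at 0 min (1.15 to 1.25), which was not called. It was 3.45-fold above 0 min at 30 min (3.34 to 3.57), 6.71-fold at 45 min (6.5 to 6.92) and 7.47-fold at 60 min (7.25 to 7.71). Ier5 was the slowest of the 3 transcripts to rise and had the smallest maximum relative to 0 min.

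The 60 min level of Ier5 was 1.11 times the 45 min level (1.1 to 1.13), so its maximum was shallow too, and the step was not called. The level then fell to 0.581 times between 60 and 75 min (0.57 to 0.594). It was 4.35-fold above 0 min at 75 min (4.2 to 4.49), 3.47-fold at 90 min (3.35 to 3.59) and 3.38-fold at 120 min (3.27 to 3.49). From 90 to 120 min it stayed at 0.974 times (0.951 to 0.998), while Ier2 and Ier3 had 1.21-fold (1.17 to 1.24) and 1.33-fold (1.29 to 1.36) higher levels, both below the limit for a call.

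Ier5l was at the edge of detection, with 24 counts before stimulation, 19 after 15 min, 12 after 30 min and 5 after 45 min. It had 7 counts after 60 min, 1 after 75 min, 6 after 90 min and 3 after 120 min. Relative to the unstimulated library, its level was 0.0686 times at 75 min (0.00167 to 0.421) and 0.118 times at 120 min (0.0228 to 0.39), and in these libraries the transcript was called lower. The first 3 libraries held 55 counts together and the last 3 held 10, a ratio of 0.229 after scaling (0.104 to 0.454). This pooling was not among the planned comparisons. It joins the unstimulated library with those at 15 and 30 min and leaves out those at 45 and 60 min. Ier5l was the only IER gene with a level below that at 0 min in the LPS libraries, and the size of this difference is uncertain by several-fold. The calls at 75 and 120 min were not made with the dispersion trend of DESeq2 or with adjusted p-values, and a minimum mean normalized count of 10 removed the gene.

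**Figure D1:**
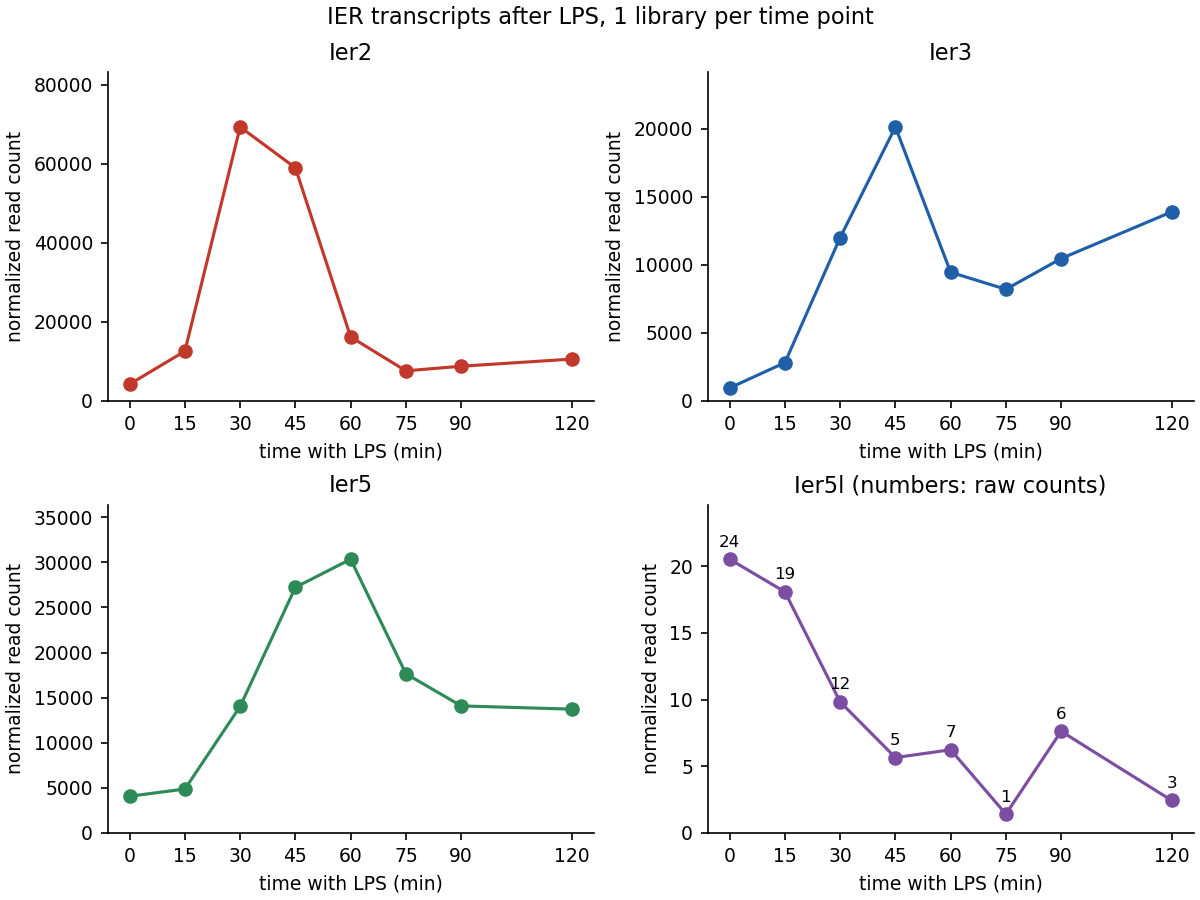
Normalized read counts of Ier2, Ier3, Ier5 and Ier5l (vertical axes, each with its own scale from 0) against time with LPS in min, with 1 point per library; the numbers beside the points of Ier5l are its raw counts. Ier2 is highest at 30 min (69320), Ier3 at 45 min (20139), Ier5 at 60 min (30345) and Ier5l before stimulation (20.5).

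To set these values against all genes, each pair of libraries was compared with an exact negative binomial test, in which a gene was called when its log2 ratio was beyond 0.5 and its unadjusted p-value was below 0.05. The test used a dispersion of all 8 libraries taken as replicates, and it compares libraries, not conditions. Of the 16967 genes with a count, 0.265% were called higher at 15 min, against 2 of the 4 IER genes (Ier2 and Ier3). Ier2, Ier3 and Ier5 were called higher in each of the later libraries, where the share of all genes called higher was 1.04% after 30 min, 3.42% after 45 min, 3.14% after 60 min, 4.3% after 75 min, 5.24% after 90 min and 7.05% after 120 min. Ier5l was the only IER gene called lower, in the 75 and 120 min libraries, where 3.13% and 6.18% of all genes were called lower. All 7 ratios of a gene share the 0 min library and are not independent of each other.

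Between neighbouring libraries, Ier2, Ier3 and Ier5 were called higher at 30 than at 15 min, as were 0.796% of all genes. From 30 to 45 min, Ier3 and Ier5 were called higher (1.02% of all genes), and Ier2 was not. With total counts, adjusted p-values or a log2 limit of 1, 0 IER genes were called in this step, and 1 with total counts without Rn45s. From 45 to 60 min, Ier2 and Ier3 were called lower (0.955%), and from 60 to 75 min Ier2 and Ier5 (0.489%). No IER gene was called from 75 to 90 or from 90 to 120 min, but over the whole span from 75 to 120 min Ier3 was called higher (1.8%). With adjusted p-values, 1 IER gene was called lower from 45 to 60 min and 0 from 60 to 75 min, and with a limit of 1 the latter count was 1.

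By the rules of the study for maxima and minima, Ier2 and Ier3 had a maximum before 60 min that was followed by a minimum, a pattern found for 0.807% of all genes. Ier5 had its maximum at 60 min and thereby falls among the genes with a first maximum from 60 min on (7.34%), and Ier5l among those with a first minimum from 60 min on (7.26%). The boundary at 60 min divides Ier5 from Ier3 although their profiles differed less (root mean square difference of centred log2 values 0.695) than those of Ier2 and Ier3 (1.13), which share a group. Within the 4 libraries low in Rn45s (0, 30, 60 and 120 min), Ier2 was highest at 30 min, Ier5 at 60 min and Ier3 at 120 min. Without the 60 min library, Ier5 was placed with Ier2 and Ier3, and without the 45 min library Ier3 was placed with Ier5.

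**Figure D2:**
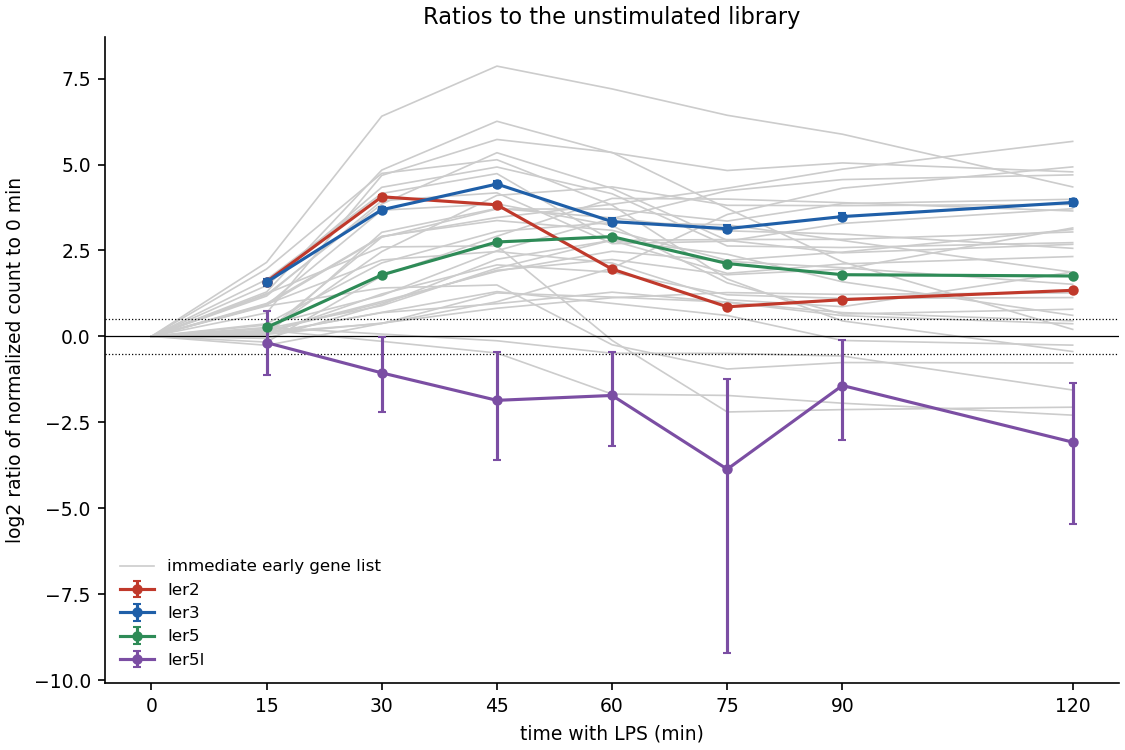
Log2 ratio of the normalized count to that at 0 min against time with LPS in min for the 4 IER genes, with 95% counting intervals as bars, and for 32 other immediate early genes as grey lines; dotted lines mark the limit of 0.5 for a call. Ier2 and Ier3 start together at 1.59 and 1.58, cross between 30 min (4.06 and 3.68) and 45 min (3.83 and 4.43) and end at 1.34 and 3.90, while Ier5l lies below 0 throughout with wide intervals.

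Levels were compared between the genes in rpkm, that is, counts per kb of length and per 1000000 counts of the library, where the length is the number of 58-mers unique to the gene. At 0 min, Ier2 had 25.3 rpkm (24.6 to 26), Ier5 11.3 rpkm (10.9 to 11.6), Ier3 7.75 rpkm (7.3 to 8.23) and Ier5l 0.0698 rpkm (0.0447 to 0.104). None of these intervals overlap. Ier2 was thus well expressed before stimulation, and Ier5l stood far below the other genes. The RefSeq gene length, in place of the longer GENCODE transcript, gave 0.117 rpkm for Ier5l.

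At 30 min, Ier2 reached 414 rpkm (411 to 417), which was 4.24 times the level of Ier3 and 10.9 times that of Ier5. It made up 75.3% of the summed rpkm of the 4 genes at this time. Ier3 reached 147 rpkm at 45 min (145 to 149) and Ier5 78.7 rpkm at 60 min (77.9 to 79.5). At 60 min the 3 transcripts were closest, with 91.9 rpkm for Ier2 (90.6 to 93.2) and 73.4 rpkm for Ier3 (72 to 74.8), and these intervals do not overlap either. The errors of the lengths are not part of the intervals, so the order at 60 min is less sure than the counting error implies.

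From 75 min on, Ier3 was the most abundant IER transcript per length. At 75 min it had 54 rpkm (52.6 to 55.4), against 38.8 rpkm for Ier5 (38.1 to 39.5) and 36.4 rpkm for Ier2 (35.5 to 37.4). At 120 min Ier3 had 100.3 rpkm (98.8 to 102), Ier2 55.6 rpkm (54.7 to 56.6) and Ier5 33.1 rpkm (32.6 to 33.6). The share of Ier3 in the summed rpkm was 17.5% at 0 min and 53.1% at 120 min, and that of Ier2 was 57% and 29.4%. The most abundant IER transcript therefore changed from Ier2 to Ier3 between 60 and 75 min.

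**Figure D3:**
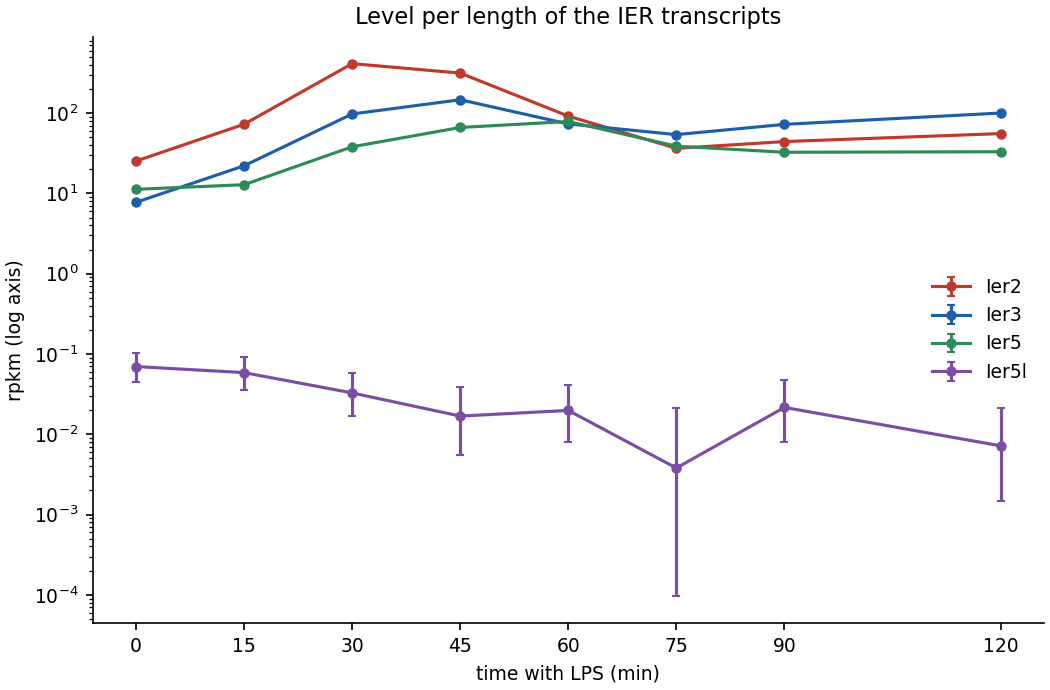
Level per length of the 4 IER transcripts in rpkm (log axis) against time with LPS in min, with exact Poisson 95% intervals that cover counting error only. Ier2 lies above the others until 60 min and Ier3 from 75 min on, and Ier5l stays below 0.1 rpkm.

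A list of 35 other immediate early genes, among them the AP-1, EGR and NR4A transcription factors and MAP kinase phosphatases, served to place the IER genes among their kind. All 35 were in the table, 34 had a count and 32 had a mean of 100 or more normalized counts. At 45 min, 31 were called higher and 0 lower (background 3.42% and 1.36%), with a median log2 ratio of 2.77 over the 32 genes, against -0.01 over all genes of such a mean. The largest ratios belonged to Fosb (233-fold, 118 to 540), Dusp1 (76.6-fold, 70.5 to 83.3), Nr4a1 (53-fold, 47.9 to 58.9), Egr1 (40.6-fold, 31.2 to 53.8) and Jun (35.2-fold, 34.2 to 36.4). The smallest belonged to Srf, the serum response factor (1.76-fold, 1.72 to 1.81), and to the Krüppel-like factor genes Klf4 (0.915-fold, 0.874 to 0.958) and Klf10 (0.715-fold, 0.682 to 0.749), of which the latter pair were not called. At 120 min 23 were called higher and 4 lower, against 7.05% and 6.18% of all genes.

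Each IER gene was ranked by its ratio to 0 min together with these 32 genes. Ier2 was number 4 of 33 at 15 min, 7 at 30 min and 11 at 45 min. It then dropped to 24 at 60 min and 28 at 75 min, and was 23 at 90 min and 20 at 120 min. Ier3 was number 4 at 15 min, 9 at 30 min and 8 at 45 min, then 13 after 60 min, 11 after 75 min, 9 after 90 min and 7 after 120 min. Ier5 kept a place between 16 and 20 at all times. Ier2 thus lost its early place after 45 min and stood next to Ier5 (number 19) at 120 min. Ier3 stayed within the upper 13, and Ier5 lay near the middle. Among 10493 genes of such a mean, Ier2 was number 10 and Ier3 number 11 at 15 min, when Ier5 was number 735.

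None of the 32 immediate early genes had its highest level at 30 min, while 17 did at 45 min, and the others were highest after 60 min (6 genes), 120 min (6), 15 min (2) or 75 min (1). Among the 653 genes of that mean whose maximum was at least 2-fold above 0 min, 5 were highest after 30 min (0.766%), 79 after 45 min, 53 after 60 min and 417 after 120 min. Besides Ier2, the genes highest at 30 min were C430049B03Rik, Mir17hg, Pik3c2g and Sptbn4, a set picked with their values in view. Their increases at 30 min were 2-fold (1.66 to 2.42), 2.34-fold (2.22 to 2.47), 2.83-fold (2.3 to 3.49) and 3.19-fold (2.49 to 4.13), all far below the 16.7-fold of Ier2. C430049B03Rik, Pik3c2g and Sptbn4 had at most 369 counts in these libraries, against 84654 for Ier2. Of the 5 genes, a lower level at 45 than at 30 min was called for Sptbn4 alone. On the immediate early list, Fos had 46927 normalized counts at 30 min and 47988 at 45 min, and Klf2 960.5 and 1020. Scaling by total counts shifts log2 ratios to 0 min by -0.0284 at 30 min and by -0.187 at 45 min. For Fos and Klf2, the place of the maximum at 45 min therefore depends on the scale.

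**Figure D4:**
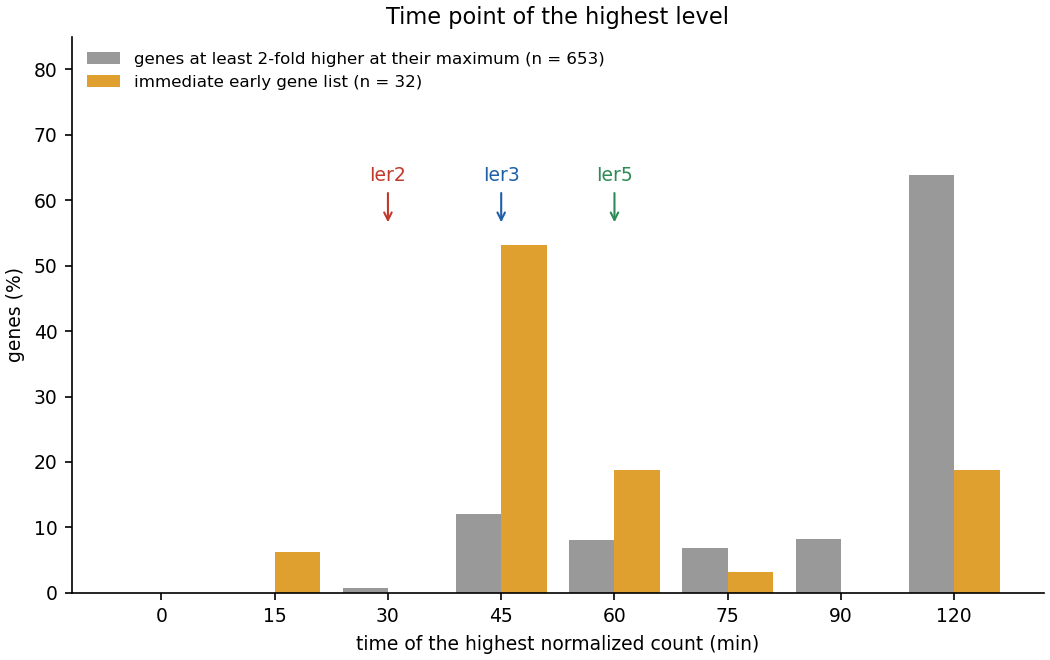
Percentage of genes with their highest normalized count at each time point in min, for 653 genes at least 2-fold above 0 min at their maximum (grey bars) and 32 immediate early genes (yellow bars); arrows mark the time points of Ier2, Ier3 and Ier5. Ier2 falls at 30 min, where the grey bar is at 0.766% and the yellow bar at 0, and Ier3 at 45 min, where the yellow bar is highest.

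The genes with the most similar profiles were found over the 8 libraries among the 10494 genes whose normalized counts averaged 100 or more, by the root mean square difference of centred log2 values. For Ier2 the 2 nearest were Zfp36 (difference 0.437), which codes for the mRNA-destabilizing protein tristetraprolin, and Nfkbid (0.573), which codes for an atypical IκB protein. Zfp36 was 17.9-fold above 0 min at 30 min and 26.6-fold at 45 min, against 16.7-fold and 14.2-fold for Ier2. At 15 min the increases of Zfp36 and Ier2 were 3.15-fold and 3.02-fold. Both neighbours were highest at 45 min, and the earlier maximum of Ier2 rests on its step from 30 to 45 min, which was not called.

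Closest to Ier3 were the phosphatase gene Dusp2 (0.254), the AP-1 gene Junb (0.353) and Nfkbia (0.449), which codes for IκBα. Dusp2 had a 2-phase course similar to that of Ier3. It was 18.1-fold above 0 min at 45 min, 6.49-fold at 60 min and 13.1-fold at 120 min, against 21.6-fold, 10.1-fold and 14.9-fold for Ier3. After 45 min, Dusp2 was lowest at 60 min and Ier3 at 75 min. Closest to Ier5 were Mybpc3 (0.186), Prr7 (0.263) and Insig1 (0.314), a regulator of sterol synthesis, all highest at 60 min. Insig1 was 4.81-fold above 0 min at 60 min, and Mybpc3, with 57 counts at 0 min and 404 at 60 min, was 7.38-fold. None of these 3 is on the immediate early list. For Ier5l, Csprs, Ankrd9 and Ccdc142 came out nearest (0.494 to 0.531), but with at most 24 counts its profile is too coarse to give these weight.

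**Figure D5:**
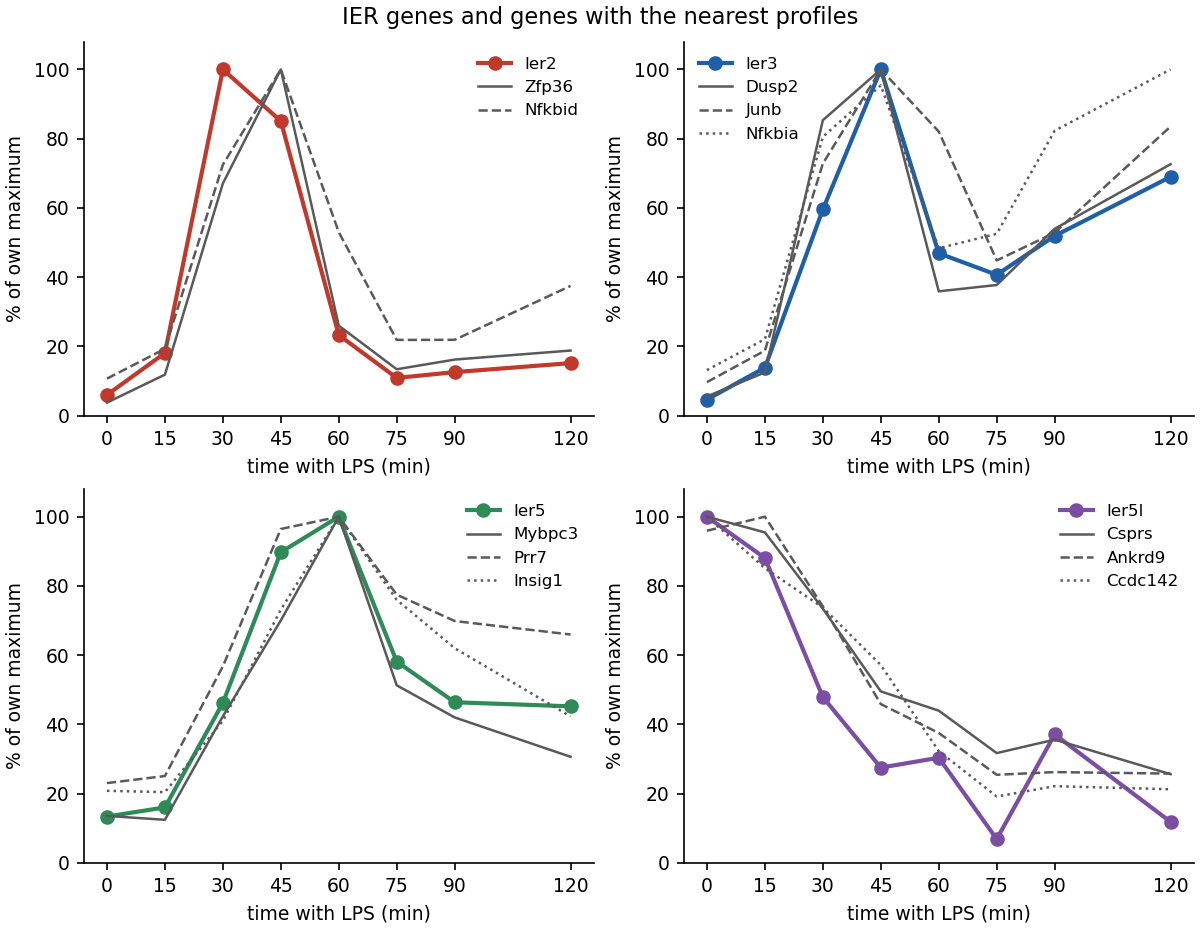
Normalized counts as a percentage of each gene's own maximum against time with LPS in min, for each IER gene (coloured points) and the genes with the nearest profiles (grey lines; 2 for Ier2 and 3 for the others). Ier2 reaches its maximum at 30 min, before Zfp36 and Nfkbid at 45 min. Ier3 and Dusp2 both fall after 45 min and are higher again at 120 min, with the low point at 75 min for Ier3 and at 60 min for Dusp2.

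A list of 12 genes connected with IER proteins was examined next, among them PP2A subunits, Hsf1, Mapk3, Atpif1 and Ier3ip1. Of the 12, 0 were called lower, and 1 was called higher, the same gene in each library from 45 min on. In these single libraries 3.14% to 7.05% of all genes were called higher, so 1 of 12 is near the background. The called gene was Ppp2r2a, which codes for the B55α subunit of PP2A. It had 1760 counts before stimulation, 1796 after 15 min, 2589 after 30 min and 3349 after 45 min, and then 3008 after 60 min, 2676 after 75 min, 2862 after 90 min and 5205 after 120 min. Its level was 2.51-fold higher than at 0 min at 45 min and 2.8-fold at 120 min, and it was called in each library from 45 min on. The other PP2A genes stayed between 0.913 and 1.35 times their level at 0 min, and Hsf1 between 0.906 and 1.02 times.

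Of 8 heat shock genes, typical targets of HSF1, 2 were called in any library, both higher. In each single library from 30 min on, 1 of the 8 was called higher, against 1.04% to 7.05% of all genes. Dnajb1, which codes for an HSP40 co-chaperone, was 2.12-fold above 0 min at 30 min, 3.31-fold at 45 min, 3.9-fold at 60 min and 3.05-fold at 75 min, and was highest at 60 min. Hspa1b had 31 counts at 0 min and 98 at 120 min, a 2.99-fold increase called in the latter library alone. The other 6 were not called in any library, with Hsp90aa1 at 1.44 times its 0 min level at 120 min and Hsph1 at 1.4 times at 75 min, and Hspa1a and Hspb1 were close to 0 counts.

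Next to the IER genes on the chromosomes, Flot1, which starts 408 bases beyond Ier3, had 0.81 to 1.04 times its 0 min level, and Nacc1, at 7624 bases from Ier2, 0.846 to 1.07 times. Cacna1a, at 21079 bases on the other side of Ier2, had 1.15 to 1.57 times its 0 min level, highest at 45 min, and was not called. Of the 8 neighbours on either side of the 4 genes, Mr1, at 28237 bases from Ier5, was called, with a level of 0.51 times at 120 min, where 6.18% of all genes were called lower. No neighbour was called higher in any library. Cacna1e had at most 1 count in a library, Cstad at most 11 and 4833427F10Rik at most 27, so the missing calls of these genes carry little weight.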

How the data were processed

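RAW264.7 RNA from 8 time points was measured with 1 library each. According to the methods, the authors removed ribosomal RNA, mapped 58-base reads with Bowtie to RefSeq transcripts of mm10 and counted them per gene symbol. The deposited values are raw read counts. The submitters' processing notes name CASAVA 1.8.2 and DESeq 1.10.1, and the version of Bowtie is not given in the sources used here.

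Size factors and a blind parametric dispersion (0.0287 plus 0.853 divided by the mean) were computed from the counts, and each of the 28 pairs of libraries was compared with an exact negative binomial test across all genes. This follows the DESeq settings of the study and was written in Python 3.11.15 with numba 0.67.0, scipy 1.17.1, pandas 2.3.3 and numpy 2.4.6, since a quasi-likelihood test leaves no residual degrees of freedom. The code was tested on simulated data. Ratios have exact conditional binomial 95% intervals and rpkm values exact Poisson intervals. Lengths, coding sequences and 3′UTRs come from GENCODE vM21 matched by RefSeq accession, which covered all 4 genes, and alignments from Biopython 1.88. A pseudocount of 1 was added for nearest profiles. Named genes are the 4 IER genes, the 3 nearest profiles of each (1 of those of Ier2 is not reported here), the 5 largest and 3 smallest 45 min ratios of the immediate early list, and called genes of the other lists; chromosomal neighbours, genes highest at 30 min and some uncalled genes of the other lists (Hsf1, Hsp90aa1, Hsph1, Hspa1a and Hspb1) were added with their values seen. The genes and lists were chosen with earlier results of these data known. The alternatives used edgeR 4.0.16 and DESeq2 1.42.0 in R 4.3.3. Spike-in transcripts were not used here.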

Additional observations from a re-analysis of the deposited data

How the results depend on the processing

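The alternatives were total counts, edgeR TMM factors and total counts without Rn45s as the scale, the dispersion trends of DESeq2 and edgeR, Benjamini-Hochberg adjusted p-values, a log2 limit of 1, a minimum mean normalized count of 10, the 0, 30, 60 and 120 min libraries alone, and each library left out. Of the 22 ratios of IER genes to 0 min that were called, 22 were also called with TMM factors and with the edgeR trend, 21 with total counts without Rn45s and with a limit of 1, 20 with total counts and with the DESeq2 trend, and 18 with adjusted p-values. No ratio changed its direction. With the DESeq2 trend, adjusted p-values or the minimum mean, 0 IER genes were called lower at 75 and at 120 min instead of 1. From 30 to 45 min, 0 were called higher with total counts, adjusted p-values or a limit of 1, and 1 with total counts without Rn45s, instead of 2. From 45 to 60 min, 1 instead of 2 was called lower with adjusted p-values. From 60 to 75 min, 0 were called lower with adjusted p-values and 1 with a limit of 1, instead of 2.

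With the pattern groups numbered (0 no extremum, 1 late maximum, 2 late minimum, 3 early maximum), Ier3 was in group 3. It moved to group 1 with the 4 libraries low in Rn45s and without the 45 min library. Leaving out libraries thus placed Ier3 in group 1 or group 3. Ier5 was in group 1 and moved to group 3 without the 60 min library, and Ier5l was in group 2 and moved to group 0 with the DESeq2 trend and with adjusted p-values. Ier2 was in group 3 with every alternative listed that kept the 0 min library. The cause of these moves was not tested. The second maximum of Ier3 at 120 min was not called with total counts without Rn45s, with adjusted p-values, with a limit of 1 or without the 75 min library, the library with the highest share of Rn45s; without the 45 min library and with the 4 libraries low in Rn45s, 120 min was its only maximum. With a minimum mean of 100, 4.6% of genes in place of 3.42% were called higher at 45 min. With adjusted p-values, 176 instead of 581 genes were called higher at that time. The nearest profiles were the same 3 genes without the 45 min library for each IER gene, but Pearson's coefficient kept 1 of 3 for Ier2, Ier3 and Ier5 and 0 for Ier5l. The 4 libraries low in Rn45s kept 2 of 3 for Ier2 and Ier3 and 1 for Ier5 and Ier5l, and a minimum mean of 10 kept 1 of 3 for Ier5l and 3 for the others. The RefSeq length for rpkm and the nearest profiles over the 4 libraries low in Rn45s were chosen after seeing the data. No paired analysis was possible because each time point has 1 library. At these depths a count of 0 allows up to 4.22 normalized counts at 75 min and 2.43 at 120 min. Ier5l lay below this at 75 min (1.41) and at it at 120 min (2.43), the libraries in which it was called lower.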
